A study of Homo sapiens with 24 samples.

Results

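Transcripts of 10 genes around the epidermal growth factor receptor (EGFR) and the ERK kinase cascade were followed in A549 cells. This human line comes from a lung adenocarcinoma. They are the ligand genes AREG, EREG and HBEGF, the ERK phosphatase genes DUSP6 and DUSP5, the Sprouty genes SPRY2 and SPRY4, PHLDA1, and the ETS factor genes ETV4 and ETV5. The 10 genes, of 60609 rows in the deposited table, were chosen by name with their values in these libraries already known, including how they differed by library number, and all 10 reached the level needed for testing. They were therefore not an independent sample of the pathway, and the difference by library number is given below as a description without a test. A further 60 genes of the same pathway were listed as a background, of which 53 could be tested.

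EGFR ligands are made as membrane proteins and are cut free by ADAM proteases. Bound ligand turns on the receptor, which activates RAS, RAF, MEK and ERK in sequence, and active ERK raises transcription of its own ligands and of inhibitors that switch the cascade off. DUSP6 and DUSP5 remove phosphate from ERK in the cytoplasm and the nucleus, Sprouty proteins block the path from receptor to RAF, and ETV4 and ETV5 are transcription factors induced by ERK, so transcripts of these genes are widely read as a gauge of ERK output in epithelial tumour cells.

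The cells were transfected for 48 h with a pool of siRNAs against BOP1 (siBOP1), a factor needed to build the large ribosomal subunit, or with an siRNA against firefly luciferase (siFLuc), the control. They were then mock treated or given interferon beta (IFN) at 1000 U/mL for 8 h or 12 h. This gives 8 groups of 3 libraries: siFLuc mock, siFLuc IFN, siBOP1 mock and siBOP1 IFN at 8 h, and the same 4 at 12 h. All are of 1 cell line, the siRNA is a transient and partial knockdown, and the labels do not say whether the 3 libraries of a group came from separate cultures, so p-values below measure the spread between libraries, which may be technical. Values are TPM, the share of a gene in a library's transcripts after division by its length, and this unit does not retain how many reads were sequenced, so the depth is unknown. In such bulk RNA a change in the number of cells that make a transcript and a change in the amount per cell cannot be told apart.

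Some facts of the whole series bear on what follows. BOP1 was at 10.0 to 19.5 TPM in the 12 siBOP1 libraries and at 32.4 to 78.8 TPM in the 12 siFLuc libraries. The epithelial keratins KRT7, KRT8 and KRT18 lay between 1162 and 3803 TPM in every library, CDH1 between 23.8 and 105.4 TPM and EPCAM between 1.92 and 5.48 TPM. Of 7 markers of other cells, PTPRC, VWF, COL3A1 and DCN were at 0 in 15 or more of 24 libraries, PECAM1 did not pass 0.345 TPM, and CD14 and COL1A1 were present at 1.81 to 5.26 and 5.37 to 19.3 TPM. The summed level of those 7 markers was 10.5 to 19.4 TPM in the libraries numbered 4 at 12 h, described next, and 7.25 to 23.2 TPM in the other 20.

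The columns of the table are numbered 1, 2 and 4 in each group, whereas the labels number the replicates up to 3. The libraries numbered 4 stood apart from the others at 12 h in most of the genes described here. At 12 h, 9 of the 10 genes (the exception was ETV4) were above both other libraries of the group in all 4 groups, against 24.1% of all 16062 genes tested. At 8 h this held for AREG, EREG, HBEGF, DUSP5 and ETV4, against 9.35% of all genes. In 7 genes, namely AREG, EREG, HBEGF, DUSP6, SPRY2, SPRY4 and ETV5, the 4 libraries numbered 4 at 12 h were above each of the other 20 libraries, which was the case for 5.11% of all genes. These shares describe how the genes were chosen, and nothing is read from them. Mitochondrial transcripts took 6.86% to 12.2% of TPM in the libraries numbered 4 at 12 h and 12.8% to 15.9% in those numbered 1 and 2 at 12 h. Of those numbered 4, siFLuc mock was at 6.86%, siFLuc IFN at 11.5%, siBOP1 mock at 12.1% and siBOP1 IFN at 12.2%. The part of this difference in the values below was not tested. Since the split crosses all 8 groups, each comparison below is given over all libraries and, where the call differs, with the library number as a block or with the libraries numbered 1 and 2 alone. Same-numbered pairs that go the same way and groups that do not overlap are described below for the 10 genes only. The share of all genes that do so was not counted, so nothing is read from them.

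The stretches before the start sites of the 3 ligand genes are shown first, because AREG and EREG tracked each other more closely than any other pair of the 10 genes and lie side by side. AREG (chromosome 4, 74445134 to 74455009, plus strand) and EREG (chromosome 4, 74365143 to 74388751, plus strand) are protein-coding genes 56.4 kb apart in GENCODE 29 on GRCh38, with 0 protein-coding genes between them. HBEGF is on chromosome 5 (140332843 to 140346631, minus strand). The 250 bases before each RefSeq start site (GRCh38.p14) follow, 5′ to 3′ on the strand of the gene, with matches to the motifs named below in capitals. They are chr4:74444886-74445135 for AREG, chr4:74364895-74365144 for EREG and chr5:140346604-140346853 for HBEGF.
AREG: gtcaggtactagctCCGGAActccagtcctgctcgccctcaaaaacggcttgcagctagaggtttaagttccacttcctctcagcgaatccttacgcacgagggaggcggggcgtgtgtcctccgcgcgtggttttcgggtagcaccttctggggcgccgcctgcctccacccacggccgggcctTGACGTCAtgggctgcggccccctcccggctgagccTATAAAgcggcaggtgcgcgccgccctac
EREG: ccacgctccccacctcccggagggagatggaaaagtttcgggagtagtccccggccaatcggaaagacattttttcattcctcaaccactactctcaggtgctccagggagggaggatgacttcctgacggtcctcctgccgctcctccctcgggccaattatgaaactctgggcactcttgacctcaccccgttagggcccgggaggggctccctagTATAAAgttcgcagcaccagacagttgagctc
HBEGF: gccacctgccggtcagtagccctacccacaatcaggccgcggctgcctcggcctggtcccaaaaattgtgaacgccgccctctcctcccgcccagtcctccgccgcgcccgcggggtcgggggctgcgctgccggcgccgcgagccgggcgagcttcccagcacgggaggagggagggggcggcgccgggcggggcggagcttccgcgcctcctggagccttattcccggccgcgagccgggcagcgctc
The AREG stretch holds a cyclic AMP response element (TGACGTCA) whose first base is 65 bases before the start, a TATA box (TATAAA) at 29 bases and an ETS core (CCGGAA) at 236 bases. The EREG stretch holds a TATA box at 32 bases, and the HBEGF stretch, with a GC content of 76.4%, holds none of the 6 motifs. The motifs were searched on both strands, and the other 3 were AP-1 (TGANTCA), an interferon response core (GAAANNGAA) and a STAT site (TTCNNNGAA). Of 35116 promoters of the same length, 1.65% hold the cyclic AMP element, 10.7% the TATA box, 14.5% the ETS core, 6.57% AP-1, 6.88% the interferon core and 6.57% the STAT site. Stretches were found for 7 of the 10 genes, all but DUSP5, ETV4 and ETV5. ETS cores were also present for PHLDA1 and SPRY2, and none of the 7 stretches held AP-1, the interferon core or the STAT site. These are matches of letters and no evidence that a factor binds.

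**Figure D1:**
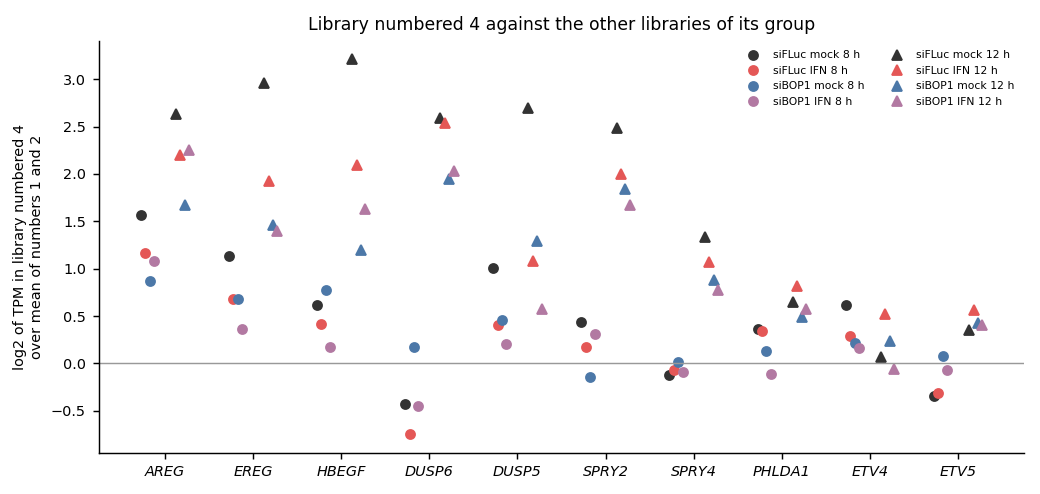
Log2 of the TPM in the library numbered 4 over the mean TPM of the libraries numbered 1 and 2 of the same group, for each of the 10 genes (x axis). Circles are the 4 groups at 8 h and triangles the 4 groups at 12 h, and 0 means no difference. At 12 h the ratios of AREG, EREG, HBEGF, DUSP6 and SPRY2 are all 2.29 or more, whereas those of ETV4 lie around 1 (0.957 to 1.43).

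AREG encodes amphiregulin, a ligand of EGFR alone. In siFLuc mock cells AREG was at 26.4, 20.3 and 69.3 TPM at 8 h (libraries numbered 1, 2 and 4, in that order throughout) and at 30.5, 27.3 and 179.6 TPM at 12 h. Under IFN the siFLuc values were 23.8, 26.3 and 56.1 TPM at 8 h and 39.0, 29.3 and 156.5 TPM at 12 h. The library numbered 4 was the highest of its group each time, and the other libraries of mock and IFN cells overlapped. With siBOP1 the mock values were 26.5, 28.3 and 50.1 TPM at 8 h and 22.3, 25.8 and 76.8 TPM at 12 h. Under IFN the siBOP1 values were 24.9, 24.8 and 52.5 TPM at 8 h and 28.1, 23.4 and 122.5 TPM at 12 h. The library numbered 4 stood at 1.83 to 2.97 times the mean of its group's other libraries at 8 h and at 3.19 to 6.22 times at 12 h.

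EREG encodes epiregulin, which binds EGFR and ERBB4. It was at 26.1, 21.0 and 51.8 TPM in siFLuc mock cells at 8 h and at 26.6, 22.1 and 189.1 TPM at 12 h. In siFLuc IFN cells it was at 29.7, 27.7 and 45.9 TPM at 8 h and at 38.3, 30.6 and 130.5 TPM at 12 h. The highest value of the series was thus a mock library. In siBOP1 mock cells EREG was at 28.1, 27.6 and 44.5 TPM at 8 h and at 21.7, 21.0 and 58.9 TPM at 12 h. In siBOP1 IFN cells it was at 38.1, 31.5 and 44.6 TPM at 8 h and at 32.3, 35.7 and 89.3 TPM at 12 h. At 12 h all 4 libraries numbered 4 lay above the range of 21.0 to 38.3 TPM held by the other 8.

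HBEGF encodes heparin-binding EGF-like growth factor, another ligand of the same receptor, and was less abundant than AREG and EREG. It lay between 1.08 and 3.54 TPM in the 20 libraries other than those numbered 4 at 12 h. Those 4 libraries were at 18.0 TPM (siFLuc mock), 12.7 TPM (siFLuc IFN), 3.65 TPM (siBOP1 mock) and 6.08 TPM (siBOP1 IFN). The siFLuc libraries were the higher of these, and the ratio to the other libraries of the group ran from 2.29 to 9.24. In siBOP1 cells at 8 h HBEGF was at 1.08, 1.44 and 2.16 TPM in mock and at 2.68, 2.53 and 2.94 TPM under IFN, 2 groups that do not overlap. In siFLuc cells at 8 h the mock values of 2.44, 2.19 and 3.54 TPM and the IFN values of 2.46, 1.94 and 2.93 TPM overlapped.

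**Figure D2:**
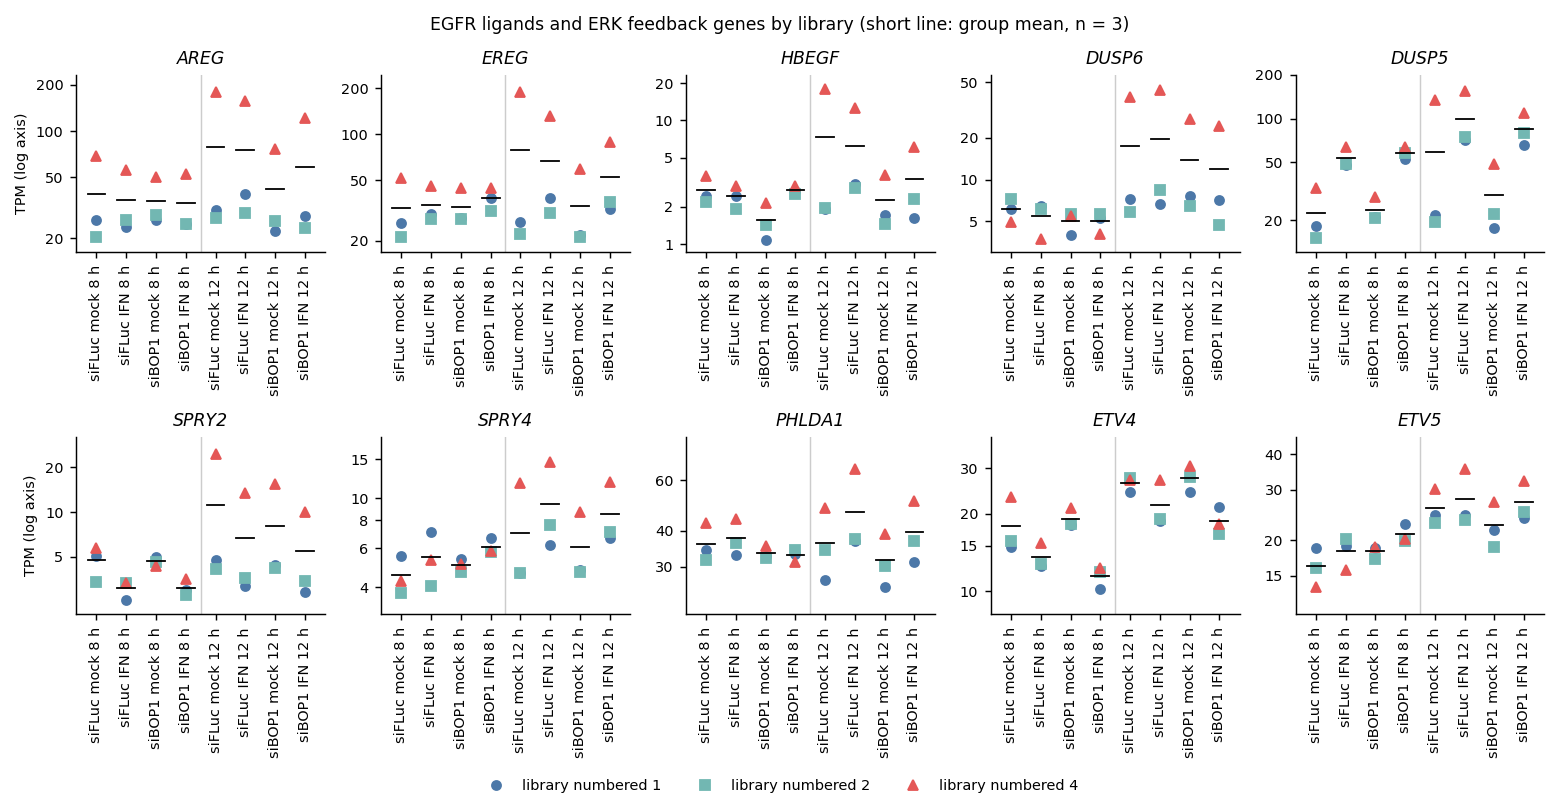
TPM (log axis) of each of the 10 genes in each of the 24 libraries, by group on the x axis, with the library number given by colour and shape and the group mean (n = 3) as a short line; the grey line separates 8 h from 12 h. Red triangles, the libraries numbered 4, stand above the other 2 libraries of their own group at 12 h in all 4 groups in 9 of 10 panels (not ETV4), and DUSP5 is higher under IFN at each time.

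None of the 3 ligand genes passed the threshold (adjusted p under 0.05) for IFN against mock over all libraries. The log2 fold changes of AREG, on the scale of log2(TPM + 1) like all those below, were -0.03 (siFLuc 8 h), -0.07 (siBOP1 8 h), 0.08 (siFLuc 12 h) and 0.28 (siBOP1 12 h), each with an SE of 0.74. Those of EREG in the same order were 0.13, 0.20, 0.14 and 0.63 (SE 0.64 each), and those of HBEGF -0.11, 0.56, 0.12 and 0.33 (SE 0.55 each). The limma adjusted p of these values lay between 0.553 and 0.993. With SEs of this size a change of the order of the EREG values was not detectable. Blocking on the library number reduced the SE of AREG to 0.17, of EREG to 0.24 and of HBEGF to 0.26, and still left each of them short of the threshold (the nearest was EREG in siBOP1 cells at 12 h, limma adjusted p 0.0585). With the libraries numbered 1 and 2 alone EREG passed at 12 h, with log2 fold changes of 0.48 in siFLuc cells (limma adjusted p 0.0275) and 0.64 in siBOP1 cells (0.00519), and HBEGF passed in siBOP1 cells at 8 h (0.68, limma adjusted p 0.0138). By library number at 12 h, the IFN to mock ratio of EREG took values of 1.44, 1.39 and 0.690 with siFLuc. With siBOP1 they were 1.48, 1.70 and 1.52. It was above 1 in 5 of 6 pairs, and the exception was the pair numbered 4 in siFLuc cells.

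DUSP5 encodes a nuclear phosphatase specific for ERK, and it was the gene of the 10 with the largest response to IFN. It was higher under IFN in all 12 same-numbered pairs, by 1.15 to 3.83 times, a count not made for all genes. In siFLuc cells it was at 18.3, 15.1 and 33.6 TPM in mock and at 48.1, 48.5 and 63.8 TPM under IFN at 8 h. In siBOP1 cells at 8 h it was at 21.1, 20.9 and 28.9 TPM in mock and at 52.8, 57.9 and 64.0 TPM under IFN. The mock and IFN libraries did not overlap with either siRNA at 8 h. At 12 h the siFLuc values were 21.9, 19.6 and 134.6 TPM in mock and 71.2, 74.9 and 154.8 TPM under IFN, and these overlapped because of the mock library numbered 4. The siBOP1 values at 12 h were 17.8, 22.3 and 48.9 TPM in mock and 66.3, 79.8 and 109.2 TPM under IFN, without overlap.

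The log2 fold change of DUSP5 under IFN was 1.29 and 1.28 at 8 h (siFLuc and siBOP1) and 1.25 and 1.59 at 12 h (SE 0.51 each). Over all libraries only the siBOP1 change at 12 h passed the threshold (limma adjusted p 0.0389), and the other 3 did not (0.120, 0.0996 and 0.117). With the library number as a block the SE was 0.28 and DUSP5 rose in all 4 comparisons (limma adjusted p 0.00333, 0.00272, 0.00341 and 0.000456). With the libraries numbered 1 and 2 alone the changes were 1.49, 1.36, 1.77 and 1.82 (SE 0.12 each), and each passed. The ratio by library number ran from 1.90 to 3.21 at 8 h and from 1.15 to 3.83 at 12 h. The lowest value, 1.15, came from the siFLuc pair numbered 4 at 12 h, in which both libraries were high. In that pair's mock library DUSP5 stood at 6.49 times the mean of the other mock libraries, against 2.12 times in the IFN library. The call in siBOP1 cells at 12 h was lost when any 1 of 5 of the 6 libraries compared was left out (limma adjusted p 0.0171 to 0.159, log2 fold change 1.31 to 2.01) and was kept without the siBOP1 mock library numbered 4. It was also lost with no filter on low values (limma adjusted p 0.0967).

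DUSP6 encodes the cytoplasmic ERK phosphatase whose transcript is a standard readout of ERK activity. It did not follow DUSP5. In the 20 libraries other than those numbered 4 at 12 h it lay between 3.76 and 8.45 TPM. The libraries numbered 4 at 12 h held 39.6 TPM (siFLuc mock), 43.8 TPM (siFLuc IFN), 27.1 TPM (siBOP1 mock) and 24.2 TPM (siBOP1 IFN), or 3.85 to 6.04 times their groups' other libraries. At 8 h the library numbered 4 was below both others in 3 of the 4 groups, with ratios of 0.596 to 1.12, so the number-4 libraries of the 2 times went opposite ways for this gene. Under IFN the log2 fold changes were -0.16 (siFLuc 8 h), -0.01 (siBOP1 8 h), 0.17 (siFLuc 12 h) and -0.21 (siBOP1 12 h), with an SE of 0.66 each ( limma adjusted p 0.884 to 0.998). With the block the SE was 0.18 and the limma adjusted p were 0.413 to 0.983.

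SPRY2 and SPRY4 encode Sprouty proteins, which damp signalling between the receptor and RAF. SPRY2 was lower under IFN in 12 of 12 same-numbered pairs, and SPRY4 was higher in 12 of 12, counts not made for all genes. In siFLuc cells at 8 h SPRY2 was at 5.06, 3.37 and 5.72 TPM in mock and at 2.55, 3.33 and 3.31 TPM under IFN. In siBOP1 cells at 8 h it was at 4.96, 4.63 and 4.33 TPM in mock and at 3.00, 2.74 and 3.56 TPM under IFN. The mock and IFN libraries did not overlap at 8 h with either siRNA (in siFLuc cells the lowest mock library was at 3.37 TPM and the highest IFN library at 3.33 TPM). At 12 h the siFLuc values were 4.72, 4.14 and 24.8 TPM in mock and 3.17, 3.57 and 13.5 TPM under IFN. The siBOP1 values at 12 h were 4.43, 4.22 and 15.5 TPM in mock and 2.87, 3.43 and 10.1 TPM under IFN. Groups overlapped at 12 h, where the libraries numbered 4 stood 3.20 to 5.60 times above the others, but within each number the IFN library was the lower.

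The log2 fold changes of SPRY2 under IFN were -0.47 (siFLuc) and -0.46 (siBOP1) at 8 h, with -0.49 (siFLuc) and -0.43 (siBOP1) at 12 h (SE 0.55 each), and none passed over all libraries (limma adjusted p 0.628 to 0.682). With the block the SE was 0.17, and SPRY2 fell in siBOP1 cells at 8 h (limma adjusted p 0.0464) and in siFLuc cells at 12 h (0.0399). It missed the threshold in the other 2 (0.0532 and 0.0641). With the libraries numbered 1 and 2 alone the siBOP1 change at 8 h passed (-0.58, limma adjusted p 0.0320) and the siFLuc change at 12 h did not (-0.31, 0.237). The SPRY4 values were between 3.79 and 7.60 TPM in the 20 libraries other than those numbered 4 at 12 h, which were at 8.72 to 14.5 TPM. Its log2 fold changes were 0.21 (siFLuc) and 0.23 (siBOP1) at 8 h, with 0.42 (siFLuc) and 0.44 (siBOP1) at 12 h (SE 0.31 each; limma adjusted p 0.397 to 0.758), with IFN to mock ratios of 1.07 to 1.27 at 8 h and 1.24 to 1.64 at 12 h. With the block (SE 0.12) SPRY4 rose at 12 h in siFLuc cells (limma adjusted p 0.0159) and in siBOP1 cells (0.0111). Both calls were lost with the libraries numbered 1 and 2 alone (limma adjusted p 0.131 and 0.136).

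PHLDA1 encodes a pleckstrin homology-like protein induced by growth factors that restrains receptor signalling. It was the steadiest of the 10 genes at 8 h, with 31.2 to 43.9 TPM over the 12 libraries. At 12 h it lay between 25.6 and 37.5 TPM in the libraries numbered 1 and 2 and between 39.2 and 65.5 TPM in those numbered 4. Under IFN its log2 fold changes were 0.06 (siFLuc) and -0.02 (siBOP1) at 8 h, with 0.34 (siFLuc) and 0.31 (siBOP1) at 12 h (SE 0.22 each; limma adjusted p 0.362 to 0.962). With the block PHLDA1 rose under IFN at 12 h with both siRNAs (SE 0.10, limma adjusted p 0.0161 and 0.0260), and the IFN library was the higher in 6 of 6 pairs at 12 h, by 1.10 to 1.37 times. Both calls were lost when the libraries numbered 4 were left out (limma adjusted p 0.120 in each). At 8 h it was higher in 4 of 6 pairs, and such counts were not made for all genes.

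ETV4 and ETV5 encode related ETS transcription factors of the PEA3 group. ETV4 was the one gene of the 10 that fell under IFN past the threshold over all libraries. With siBOP1 at 8 h its level went from 18.1, 18.2 and 21.0 TPM in mock to 10.2, 11.8 and 12.3 TPM under IFN. With siBOP1 at 12 h its level went from 24.3, 27.8 and 30.6 TPM to 21.3, 16.6 and 18.1 TPM. Neither pair of groups overlapped. In siFLuc cells the values were 14.8, 15.6 and 23.2 TPM in mock and 12.5, 12.7 and 15.4 TPM under IFN at 8 h, and 24.3, 27.4 and 27.07 TPM in mock and 18.8, 19.03 and 27.09 TPM under IFN at 12 h. The siFLuc groups overlapped at both times, and in the pair numbered 4 at 12 h the values were nearly equal.

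The log2 fold change of ETV4 under IFN was -0.70 at 8 h and -0.54 at 12 h in siBOP1 cells (SE 0.16 each; limma adjusted p 0.00443 and 0.0267). In siFLuc cells it was -0.35 and -0.29 (limma adjusted p 0.190 and 0.270). The siBOP1 call at 8 h was kept without any 1 of the 6 libraries. The call at 12 h was lost without the library numbered 2 or 4 of either group (limma adjusted p 0.0256 to 0.126). With the block neither siFLuc change passed (limma adjusted p 0.0502 and 0.0944), and with the libraries numbered 1 and 2 alone the siFLuc change at 12 h did (-0.43, limma adjusted p 0.0257). The difference between the siRNAs in the response of ETV4 was itself -0.35 at 8 h (SE 0.23) and -0.25 at 12 h (SE 0.23), with a limma adjusted p that rounds to 1 at both times, so a difference between the siRNAs was not shown. ETV5 moved little: its log2 fold changes under IFN were 0.08 to 0.25 (SE 0.17 each, limma adjusted p 0.350 to 0.805). The IFN library was the higher in 12 of 12 pairs, by 1.00 to 1.32 times, a count not made for all genes. With the block ETV5 rose in siBOP1 cells at 12 h (limma adjusted p 0.0449), a call lost with the libraries numbered 1 and 2 alone (0.101).

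**Figure D3:**
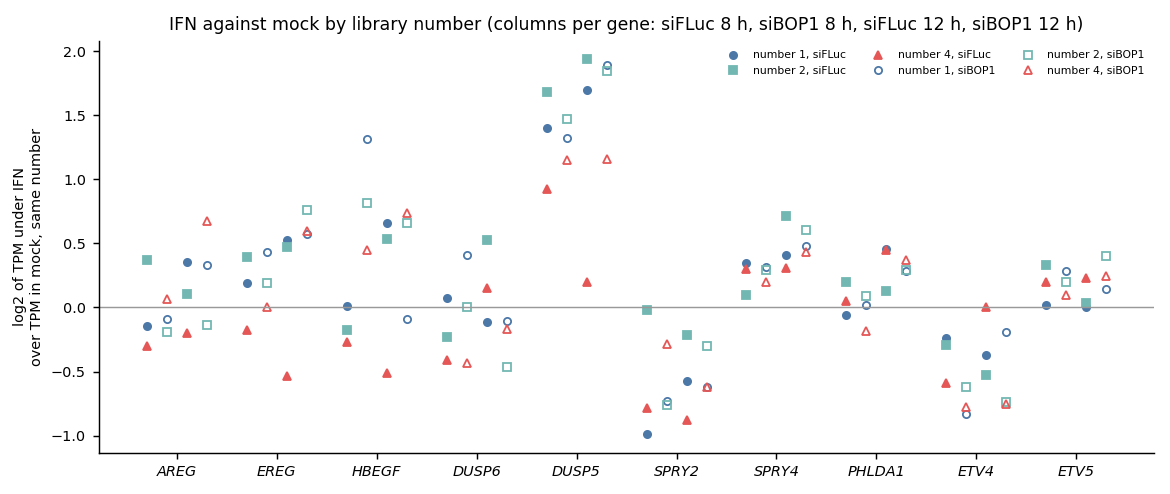
Log2 of the TPM under IFN over the TPM in mock cells between libraries of the same number, siRNA and time, for each of the 10 genes (x axis). Within a gene the columns are siFLuc 8 h, siBOP1 8 h, siFLuc 12 h and siBOP1 12 h; filled symbols are siFLuc, open symbols siBOP1, and shape and colour give the library number. All 12 points of DUSP5, SPRY4 and ETV5 are above 0 and all 12 of SPRY2 below it, as are 11 of 12 for ETV4. The share of all genes with such points was not counted.

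Counted over the 10 genes, IFN against mock gave 0 calls in siFLuc cells at 8 h, where 10.8% of all genes were called, and 1 in siBOP1 cells at 8 h (ETV4 lower), where 15.1% were. At 12 h it gave 0 calls in siFLuc cells (13.5% of all genes) and 2 in siBOP1 cells (DUSP5 higher and ETV4 lower, 14.8% of all genes). These shares are near or below the background. With the block the calls were 1, 3, 4 and 5 in siFLuc 8 h, siBOP1 8 h, siFLuc 12 h and siBOP1 12 h, against 21.0%, 29.0%, 26.9% and 27.9% of all genes. With the libraries numbered 1 and 2 alone they were 1, 4, 3 and 3, against 16.0%, 21.8%, 21.2% and 23.9% of all genes. The median log2 fold change of the 10 genes was 0.02, 0.09, 0.13 and 0.30 in that order, where that of all genes was -0.09, -0.14, -0.06 and -0.08. Rescaling the columns by median of ratios raised the all-gene median by 0.13 in siBOP1 cells at 8 h, and there the small changes of AREG, DUSP6 and PHLDA1 turned from negative to positive.

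The next comparison asked whether depletion of BOP1 moved these genes. Over all libraries none of the 10 passed in any of the 4 comparisons, in which 2.16% (mock 8 h), 2.0% (IFN 8 h), 1.60% (mock 12 h) and 0.660% (IFN 12 h) of all genes were called. The largest differences were in mock cells at 12 h, where the log2 fold changes with siBOP1 were -0.80 for HBEGF (SE 0.55), -0.67 for EREG (SE 0.64), -0.57 for AREG (SE 0.74) and -0.52 for DUSP5 (SE 0.51), with limma adjusted p of 0.609, 0.740, 0.820 and 0.752. The siBOP1 to siFLuc ratio of AREG by library number was 0.732, 0.947 and 0.428 in mock cells at 12 h and 0.722, 0.801 and 0.783 under IFN at 12 h. AREG, HBEGF and PHLDA1 were lower with siBOP1 in 6 of 6 pairs at 12 h, and at 8 h in 3, 3 and 4 of 6. The share of all genes lower in 6 of 6 pairs was not counted.

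With the block AREG was lower with siBOP1 in mock cells at 12 h (log2 fold change -0.57, SE 0.17, limma adjusted p 0.0490), and the other 9 genes did not pass there or in the other 3 comparisons. The shares of all genes called with the block were 8.49% (mock 8 h), 8.81% (IFN 8 h), 7.66% (mock 12 h) and 3.77% (IFN 12 h). Without the libraries numbered 4 the AREG change was -0.26 (SE 0.15, limma adjusted p 0.508), so that call rested on the pair numbered 4, in which the siFLuc mock library was at 179.6 TPM and the siBOP1 mock library at 76.8 TPM. The same siFLuc mock library held the highest values in the series of AREG, EREG, HBEGF and SPRY2.

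The response to IFN was then compared between the siRNAs. In a test of the siRNA by IFN interaction 0 of the 10 genes and 0% of all genes passed at 8 h, and likewise 0 and 0% at 12 h (limma, adjusted p under 0.05). Without adjustment, 353 genes at 8 h and 259 at 12 h of the 16062 tested, none of them among the 10, had a p under 0.05. These are fewer than the share of 0.05 that lies under such a p when no gene differs. With the block the counts of all genes were again 0, with 806 and 671 below 0.05 before adjustment, near or under that share. The estimates for the 10 genes ran from -0.35 (ETV4) to 0.67 (HBEGF, SE 0.78) at 8 h and from -0.38 (DUSP6, SE 0.94) to 0.48 (EREG, SE 0.90) at 12 h, so differences of such a size were not detectable.

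Of the 10 genes, ETV4 alone was called between 8 h and 12 h over all libraries, only under IFN and not stably, as given below. It was higher at 12 h than at 8 h with no overlap of libraries in each of the 4 siRNA and treatment groups. The share of all genes without such overlap was not counted. The log2 differences were 0.56 in siFLuc mock (limma adjusted p 0.148), 0.62 in siFLuc IFN (0.0348), 0.50 in siBOP1 mock (0.245) and 0.66 in siBOP1 IFN (0.0280), with an SE of 0.16 each. ETV4 was thus called in the 2 IFN comparisons, in which 3.53% (siFLuc) and 2.96% (siBOP1) of all genes were called. It was not called in the mock comparisons, in which 0.131% and 0.230% were. The time by IFN interaction of ETV4 was 0.07 with siFLuc and 0.16 with siBOP1 (SE 0.23 each), and neither passed. A difference between IFN and mock cells in its change over time was therefore not shown. ETV5 was higher by 0.65 (siFLuc mock), 0.56 (siFLuc IFN), 0.28 (siBOP1 mock) and 0.35 (siBOP1 IFN), with an SE of 0.17 each (limma adjusted p 0.107, 0.0646, 0.639 and 0.274). With the number as a block ETV4 and ETV5 rose in siFLuc mock cells (limma adjusted p 0.0362 and 0.0459; 1.56% of all genes called) and in siFLuc IFN cells (0.00563 and 0.0355; 7.91% called). In siBOP1 mock cells none passed (ETV4 0.0559; 0.884% called), and in siBOP1 IFN cells ETV4 did (0.00416; 7.05% called). With the libraries numbered 1 and 2 alone the ETV4 differences were 0.73, 0.55, 0.49 and 0.73 (SE 0.12 each; limma adjusted p 0.0159, 0.0254, 0.0818 and 0.00739). In that fit neither siFLuc change of ETV5 passed (limma adjusted p 0.0726 and 0.166), and DUSP5 was higher at 12 h in siFLuc IFN cells (0.59, limma adjusted p 0.0196).

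The calls of ETV4 over time were the least settled. Both were lost under median-of-ratios rescaling (log2 differences of 0.52 and 0.55) and quantile normalization (0.50 and 0.53), with no filter, and when other groups were left out of the fit. The call in siBOP1 IFN cells was lost without any 1 of the 6 libraries (limma adjusted p 0.0520 to 0.104), and that in siFLuc IFN cells without any 8 h library or the 12 h library numbered 4 (0.0438 to 0.170 over the 6). For DUSP6 the difference between the times was 0.90, 1.23, 1.02 and 0.81 (SE 0.66 each), none of which passed (limma adjusted p 0.316 to 0.672). Without the libraries numbered 4 it was -0.03, 0.23, 0.47 and 0.06 (SE 0.20 each).

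The other genes of the pathway gave a reference for these values. Of the 53 tested, IFN raised 3 and lowered 2 in siFLuc cells at 8 h, raised 4 and lowered 2 in siBOP1 cells at 8 h, raised 5 and lowered 2 in siFLuc cells at 12 h, and raised 6 and lowered 4 in siBOP1 cells at 12 h. In the same order, 10.8%, 15.1%, 13.5% and 14.8% of all genes were called in either direction. The ligand gene BTC, for betacellulin, was among the raised genes in all 4. BTC went from 1.88, 2.48 and 2.69 TPM in siFLuc mock to 20.2, 17.3 and 15.9 TPM in siFLuc IFN cells at 8 h, and from 3.14, 1.47 and 2.66 TPM to 20.5, 17.9 and 19.3 TPM at 12 h. Its log2 fold changes were 2.49 (siFLuc) and 2.46 (siBOP1) at 8 h, with 2.60 (siFLuc) and 2.66 (siBOP1) at 12 h (SE 0.20 each; limma adjusted p 5.63e-09, 6.68e-09, 2.75e-09 and 1.82e-09). A member of the same ligand family thus rose with IFN at both times. AREG, EREG and HBEGF did not pass over all libraries, where their SEs were larger, at 0.74, 0.64 and 0.55. With the libraries numbered 1 and 2 alone EREG passed at 12 h with both siRNAs and HBEGF in siBOP1 cells at 8 h.

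RHBDF2 encodes iRhom2, a partner of the sheddase ADAM17 that releases EGFR ligands. It rose under IFN from 33.4 ± 5.91 to 69.2 ± 6.72 TPM (SD, n = 3) in siFLuc cells at 8 h and from 46.9 ± 5.20 to 103.8 ± 3.28 TPM (SD, n = 3) at 12 h. Its log2 fold changes were 1.04, 0.91, 1.14 and 1.13 in the same order as for BTC (SE 0.12 each; limma adjusted p 1.47e-06, 8.51e-06, 3.47e-07 and 3.94e-07). The adaptor gene SHC1 also rose in all 4 (0.33 to 0.36), and the sheddase genes ADAM10 and ADAM17 rose at 12 h with both siRNAs (0.32 to 0.43). PTPN11, which encodes the phosphatase SHP2 that carries the signal from receptor to RAS, fell in all 4 comparisons, by -0.47, -0.61, -0.50 and -0.55 (SE 0.11 each; limma adjusted p 0.00643, 0.000533, 0.00340 and 0.00144). The other lowered genes were SOS2, NRAS and HRAS, of the step that loads RAS. The early response gene IER2 rose in siBOP1 cells at 8 h (1.01, SE 0.29, limma adjusted p 0.0226) and DUSP4 in siBOP1 cells at 12 h. SHC1, ADAM10, ADAM17, SOS2, NRAS, HRAS and DUSP4 were named after their values were seen. With the block the counts were 7 raised and 6 lowered, 6 and 8, 9 and 6, and 11 and 7 in siFLuc 8 h, siBOP1 8 h, siFLuc 12 h and siBOP1 12 h. The shares of all genes called with the block were 21.0%, 29.0%, 26.9% and 27.9% in that order.

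Depletion of BOP1 called 2 of the 53 genes, each in 1 comparison. Of all genes, 2.16% (mock 8 h), 2.0% (IFN 8 h), 1.60% (mock 12 h) and 0.660% (IFN 12 h) were called. CCND1, for cyclin D1, was higher with siBOP1 in mock cells at 8 h, at 104.3 ± 4.75 against 67.7 ± 8.96 TPM (SD, n = 3; log2 fold change 0.62, SE 0.13, limma adjusted p 0.0142). ERBB3, a partner receptor of EGFR family members, was higher in mock cells at 12 h, at 7.07, 4.79 and 10.5 TPM against 4.06, 3.08 and 1.80 TPM (1.07, SE 0.27, limma adjusted p 0.0493). The ERBB3 call was lost under 5 of the alternatives, among them a pseudocount of 0.1 and median-of-ratios rescaling, and that of CCND1 when the other groups were left out of the fit. With the block 3, 3, 6 and 1 genes of the list were past the threshold in mock 8 h, IFN 8 h, mock 12 h and IFN 12 h, and CCND1 was higher in all 4 (log2 fold change 0.51 to 0.62, limma adjusted p 0.00160 to 0.0132). In these comparisons the block fit called 8.49%, 8.81%, 7.66% and 3.77% of all genes. Between 12 h and 8 h 5 of the list rose in siFLuc IFN cells and 4 in siBOP1 IFN cells, and 0 in mock cells with either siRNA. The shares of all genes called were 3.53% and 2.96% in IFN cells and 0.131% (siFLuc) and 0.230% (siBOP1) in mock cells. RHBDF1, the iRhom1 gene, rose by 0.91 and 0.95 (SE 0.18 each; limma adjusted p 0.0105 and 0.00782), the ETS factor gene ETV1 by 0.89 and 0.93 (SE 0.23 each; 0.0383 and 0.0346) and RHBDF2 by 0.58 and 0.53 (SE 0.12 each; 0.0106 and 0.0191) in siFLuc and siBOP1 IFN cells. ERBB2 and ADAM10 completed the 5 in siFLuc IFN cells, ERBB2 at 0.65 (SE 0.17, limma adjusted p 0.0440), and ADAM17 the 4 in siBOP1 IFN cells.

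The libraries numbered 4 at 12 h also stood apart in many genes of the list. In 12 of the 53, among them EGFR, ERRFI1, FOS, IER3, JUN, JUNB, EPHA2, MYC, DUSP1 and DUSP10, those 4 libraries were above each of the other 20. This was the case for 5.11% of all genes. The list was chosen with earlier results of these data known, so nothing is read from that count. EGFR itself was at 73.1 to 91.2 TPM in them and at 36.9 to 61.5 TPM elsewhere, and ERRFI1, which encodes the EGFR inhibitor MIG6, at 81.0 to 137.1 against 31.4 to 56.0 TPM. The immediate early genes were furthest apart in 1 library. In the siFLuc mock library numbered 4 at 12 h FOS was at 221.4 TPM, EGR1 at 147.5 TPM and DUSP1, a phosphatase of the stress kinases and ERK, at 595.3 TPM. In the other 3 libraries numbered 4 at 12 h FOS was at 13.9 to 23.1 TPM, EGR1 at 6.09 to 21.4 TPM and DUSP1 at 178.2 to 267.3 TPM. At 8 h the libraries numbered 4 were not high in these 3 genes: FOS was at 2.40 to 3.85 TPM, EGR1 at 0.182 to 0.482 TPM and DUSP1 at 39.8 to 50.7 TPM. For FOS and EGR1 they were at the low end of the 20 libraries other than those numbered 4 at 12 h. Those 20 ran from 2.40 to 9.43 TPM for FOS and from 0.182 to 6.24 TPM for EGR1. For FOSL1 the log2 difference of number 4 from numbers 1 and 2 was 1.23 at 8 h and 1.48 at 12 h (SE 0.23 each).

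**Figure D4:**
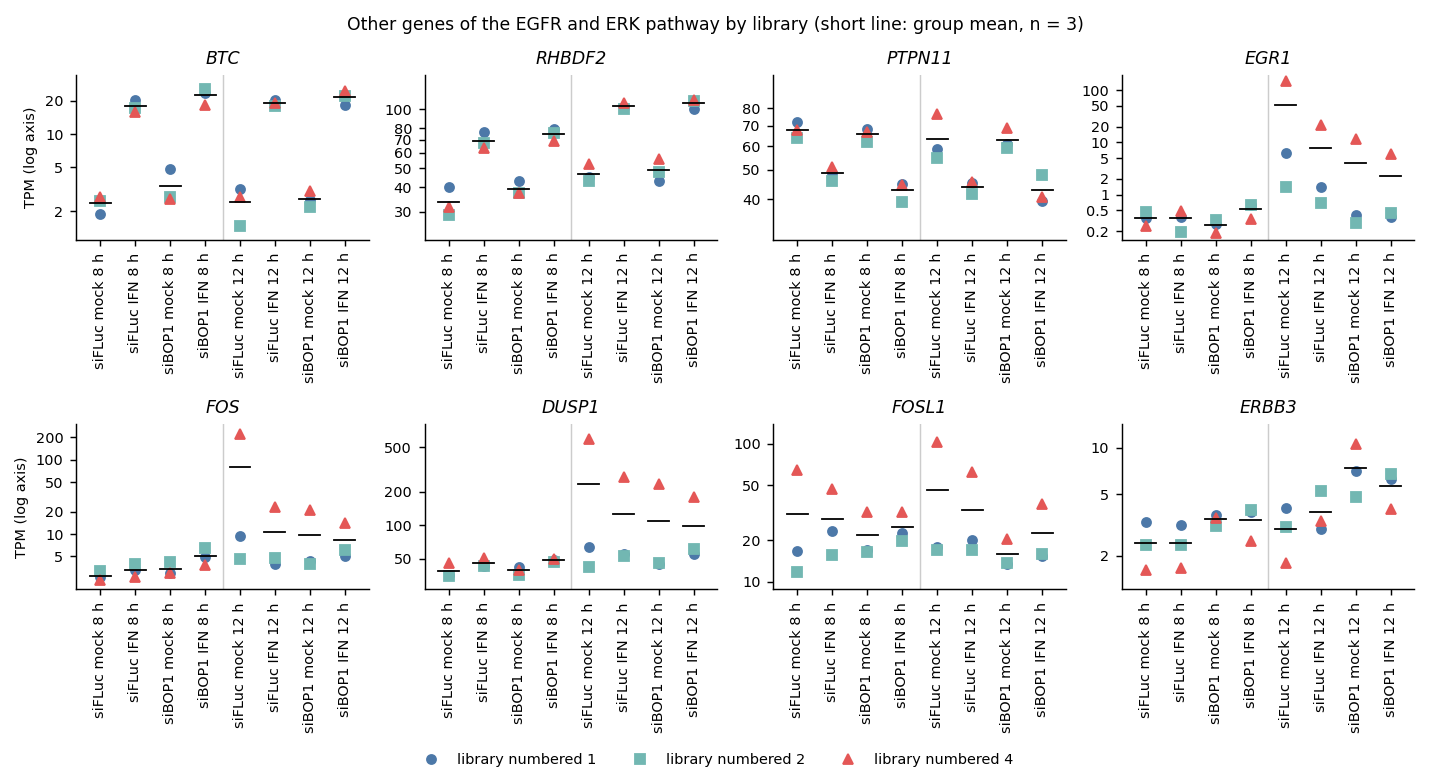
TPM (log axis) of 8 other genes of the pathway in each of the 24 libraries, by group on the x axis, with library number by colour and shape and the group mean (n = 3) as a short line. BTC and RHBDF2 are higher and PTPN11 lower under IFN in every group pair. FOS and DUSP1 are above all other libraries in those numbered 4 at 12 h, most of all in siFLuc mock cells (FOS 221.4 TPM). EGR1 is also highest in that siFLuc mock library. Its values in the libraries numbered 4 at 12 h start at 6.09 TPM and overlap the others, which reach 6.24 TPM.

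The correlations among the 10 genes are given with and without those 4 libraries. Pearson r of log2(TPM + 1) over the 24 libraries had a median of 0.727 over the 45 pairs of genes, from -0.059 (DUSP5 with ETV4) to 0.951 (AREG with EREG). Without the 4 libraries numbered 4 at 12 h the median over the same 45 pairs was 0.002, from -0.665 (DUSP5 with SPRY2) to 0.814 (AREG with EREG). AREG with DUSP6 went from 0.767 to -0.492 and DUSP6 with SPRY2 from 0.881 to -0.110, whereas EREG with HBEGF stayed at 0.649. The 10 genes were chosen with their differences by library number known, so nothing is read from the lower r without those 4 libraries. The r of other genes was not computed as a background. The libraries share treatments and numbers and are not independent, so these values describe the table only.

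The 5 genes most like AREG over the 24 libraries, by Pearson r of log2(TPM + 1), were MTHFD2 (0.962), EREG (0.951), CARS1 (0.940), AEN (0.939) and IFRD1 (0.932). Without the 4 libraries numbered 4 at 12 h their r with AREG was 0.874, 0.814, 0.804, 0.857 and 0.721. MTHFD2, a mitochondrial folate enzyme, was at 54.4 to 217.6 TPM. The 5 most like DUSP6 were ZBTB34 (0.951), TUFT1 (0.949), TSPYL2 (0.945), ZNF627 (0.944) and DUSP10 (0.935), and without those 4 libraries their r with DUSP6 was between 0.392 and 0.570. These genes were picked for the r over all 24 libraries, so the r without the 4 is a description of the same genes and no check of the likeness.

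The 10 genes also have features in their transcripts and surroundings that can touch these values. In GENCODE 29 the heptamer TATTTAT, the core of AU-rich elements that shorten the life of many growth factor and early response transcripts, is present in the annotated 3′ UTR of 7 of the 10 genes, all but DUSP6, DUSP5 and ETV4. It is present in 31.2% of the 12430 tested genes with such a UTR and in 23 of 52 of the other pathway genes, and 1 transcript per gene, that with the longest coding sequence, was read. The median UTR length was 1739 bases in the 10 genes, 972 in all tested genes and 1260 in the other pathway genes. A longer UTR has more places for a match. Among the 10924 tested genes with a UTR within the range of lengths of the 10 genes, 29.2% hold the heptamer. Their median length was 937 bases, and shares at equal length were not computed. ETV4 overlaps DHX8 on the opposite strand, and DUSP6, SPRY4, PHLDA1 and ETV5 overlap antisense transcripts. ETV5 also overlaps the annotation of DGKG on its own strand. The library kit keeps the strand per the labels, but whether counting used it is not stated, so the values of these 5 genes are uncertain to that extent.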

How the data were processed

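The authors deposited a table of TPM for 24 libraries and 60609 gene rows, of which 60295 have a symbol; each column sums to 1000000. Per the labels' protocols, the RNA was treated with DNase and the kit used for sequencing keeps the strand of mRNA. The aligner, the counting step, its use of strand and its handling of overlapping genes are not given in the sources used here. TPM keeps no depth, so no counting error can be given. Of the 24 columns, 16 match a labelled replicate and 8, numbered 4, match only a group; 0 columns were unmapped.

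A gene was tested where 3 or more libraries reached 1 TPM (16062 genes). The fit used limma 3.58.1 (R 4.3.3) on log2(TPM + 1), with 1 mean per group over all 24 libraries, an intensity trend, no block, and Benjamini-Hochberg adjustment over all genes within a comparison (threshold 0.05). The fit was tested on simulated data. Over 8 comparisons of 2 groups and 3 numbers, the deviations of same-numbered libraries from their group means correlated at 0.115 to 0.508, all above the required 0.1, so a fit with the library number within a time as a block (the number alone between times) is given beside results it changes. The pairing comes from these data and the column names, since the labels do not say what a number shares. The deviations sum to 0 within a group, so a shift of the libraries numbered 4 also raises the r of numbers 1 and 2. The r of those numbers therefore cannot show that they are paired. Other alternatives were a pseudocount of 0.1, no filter, a mean of at least 5 TPM, median-of-ratios and quantile scaling, no trend, only the groups compared, libraries numbered 1 and 2 only, and leaving out each library.

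The 10 genes and the pathway list were chosen with earlier results of these data known. All 10 are named throughout; of the list, up to 4 per family of comparisons with the largest mean change among called genes that reach 5 TPM in some group, and for AREG and DUSP6 the 5 genes with the highest Pearson r. Positions are from GENCODE 29 (GRCh38) and promoters from RefSeq (GRCh38.p14).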

Additional observations from a re-analysis of the deposited data

How the results depend on the processing

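The calls among the 10 genes depended most on how the library number was treated. With the replicate block the calls for IFN against mock went from 0 to 1 (siFLuc 8 h), from 1 to 3 (siBOP1 8 h), from 0 to 4 (siFLuc 12 h) and from 2 to 5 (siBOP1 12 h), for the siRNA from 0 to 1 in mock cells at 12 h, and for 12 h against 8 h from 0 to 2 in siFLuc mock and from 1 to 2 in siFLuc IFN cells. With the libraries numbered 1 and 2 only they were 1, 4 and 3 in siFLuc 8 h, siBOP1 8 h and siFLuc 12 h, and over time 1 in siFLuc mock and 2 in siFLuc IFN cells. With only the groups compared they were 1 (siFLuc 8 h), 2 (siBOP1 8 h) and 1 (siBOP1 12 h), and over time 0 in both IFN groups. With no filter on low values they were 0 in siBOP1 12 h and 0 over time in both IFN groups. Median-of-ratios rescaling and quantile normalization gave 0 over time in siBOP1 IFN cells. Leaving out 1 library gave 0 to 1 calls in siFLuc 12 h (1 without the siFLuc mock library numbered 4), 0 to 1 in siBOP1 12 h, 0 to 1 over time in siFLuc IFN cells and 0 over time in siBOP1 IFN cells. None of the calls over all libraries changed direction under the alternatives run, and the cause of the lost calls was not tested. Under rescaling some values near 0 changed sign in the comparisons reported, namely AREG (IFN, siFLuc 8 h), AREG, DUSP6 and PHLDA1 (IFN, siBOP1 8 h), AREG and SPRY2 (siRNA, mock 8 h), HBEGF (12 h against 8 h, siBOP1 IFN) and AREG and DUSP5 (siRNA by IFN interaction, 8 h). The depth of the libraries is unknown, so what depth limits could not be stated.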
